A study of Drosophila melanogaster with 2 samples.

Results

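The peaks described here are those at Drosophila promoters whose transcription start sites (TSSs) all lie on the same DNA strand. A peak was a member when its summit lay within 1 kb of the TSS of a protein-coding gene and every such TSS within 1 kb lay on that strand. The rule used the annotation and the summit position and no signal, sequence or gene name. It chose 1462 of the 3601 chromosome-arm peaks of the deposited list thresholded by the irreproducible discovery rate (IDR), or 40.6%. The other promoter peaks of that list, 896 with TSSs on both strands within 1 kb, are the closest class for comparison, and the remaining 1243 peaks lay outside promoters. The study profiled Stat92E by ChIP-seq in whole embryos of mixed sex, aged 0 to 12 h, from flies that stably express Stat92E with eGFP at its C terminus. There was 1 group of 2 biological replicates, numbered 1 and 3 in the labels. The text of the labels says that the precipitation used an antibody against GFP, while the antibody label names Stat92E. The fragments of the sonicated chromatin ranged from 200 to 800 bp. The labels name neither the promoter of the tagged gene nor the state of the endogenous copies, the embryos mix many stages and cell types, and no untagged embryos or control libraries were analysed here, so no value below has a background measured in a control sample.

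Stat92E is the only STAT protein of the fly and the end point of its JAK/STAT pathway: secreted ligands of the unpaired family bind the receptor, the receptor-bound JAK kinase phosphorylates STAT, and STAT dimers enter the nucleus and bind a palindrome made of TTC and GAA with a short spacer. The pathway is known for its roles in embryonic segmentation, in shaping the hindgut, trachea and posterior spiracles, in blood cells and in stem cell niches. Fly promoters come in several types. Some carry a TATA box or an initiator and the GAGA factor encoded by Trl, and many genes of this kind are regulated in development. Others carry DRE, the site of the factor DREF, or core promoter motif 1, bound by M1BP, and many serve functions that every cell needs. A promoter with its TSSs on 1 strand gives the surrounding sequence a direction, so that summits and motifs can be placed upstream or downstream of the gene start and on the gene strand or the opposite strand.

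Summit windows of the class held 2 kinds of sequence, STAT sites and core promoter elements, and the strongest examples of each are printed so that both can be seen. All are given 5′ to 3′ on the strand of the gene, from the RefSeq copy of the Release 6 genome (dm6), with the motif in capitals. The strongest with the 3-base-spacer site TTCNNNGAA were those of Lk6, which encodes a kinase of the translation factor eIF4E (chr3R:11761028-11761088, minus strand), Socs36E, the feedback inhibitor of the pathway (chr2L:18151690-18151750, minus), gish, a casein kinase (chr3R:16280695-16280755, plus), and Stat92E itself (chr3R:20550382-20550442, minus).
Lk6: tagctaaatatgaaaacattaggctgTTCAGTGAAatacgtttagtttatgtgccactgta
Socs36E: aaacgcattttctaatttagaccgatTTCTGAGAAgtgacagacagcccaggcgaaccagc
gish: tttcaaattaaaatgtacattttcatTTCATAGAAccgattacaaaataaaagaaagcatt
Stat92E: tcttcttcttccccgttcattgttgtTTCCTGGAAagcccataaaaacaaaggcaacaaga
Only the Stat92E site matches TTCCNGGAA, the form called the full palindrome here. The strongest with TTC and GAA separated by 4 bases, and no 3-base-spacer site, were those of E(spl)m7-HLH, a Notch-induced repressor (chr3R:26036729-26036788, plus), and COX7AL2, named for a subunit of cytochrome c oxidase (chr2L:2197162-2197221, minus).
E(spl)m7-HLH: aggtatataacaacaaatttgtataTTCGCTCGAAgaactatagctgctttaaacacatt
COX7AL2: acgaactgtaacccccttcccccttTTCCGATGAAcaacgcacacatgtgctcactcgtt
The strongest with DRE, TATCGATA, were those of Abl, a tyrosine kinase (chr3L:16647910-16647969, minus), and Wdr62, a protein of centrosomes and spindles (chr2L:1884614-1884643, plus).
Abl: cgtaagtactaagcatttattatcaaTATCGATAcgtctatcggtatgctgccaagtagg
Wdr62: taattcgattcTATCGATAtcgatttgcag
The strongest with GGTCACAC, the centre of core promoter motif 1, were those of Meltrin, a metalloprotease of the ADAM family (chr3R:14697305-14697364, minus), and RpL30, a protein of the large ribosomal subunit (chr2L:19009261-19009290, minus). Both carry it on the gene strand.
Meltrin: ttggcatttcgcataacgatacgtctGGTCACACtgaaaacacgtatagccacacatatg
RpL30: atccccccgtcGGTCACACcaacacaaacg
The STAT sites of Lk6, Socs36E, gish and Stat92E lay 2, -16, 3 and -34 bp from their summits, negative values being upstream in the direction of the gene. From the TSS, however, the same sites lay at -979, 697, -164 and 695 bp, so the strongest STAT sites of the class were not close to a gene start. The centres of the core promoter elements lay nearer to it, at -57.5 bp in Abl, 6.5 bp in Wdr62, -42.5 bp in Meltrin and 30.5 bp in RpL30.

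The summits crowded around the gene start and leaned upstream of it. Their median position was -38 bp, negative being upstream, with quartiles at -187 and 50.75 bp, and the median distance in either direction was 110 bp. Of the 1462 summits, 687 (47.0%) lay within 100 bp of the TSS and 1007 (68.9%) within 200 bp. Upstream of the nearest TSS lay 890 summits, or 60.9% (95% exact binomial interval 58.3 to 63.4), whereas 45.0% of the one-strand promoter sequence lies upstream (two-sided exact binomial p = 4.65e-34). Density per megabase of this sequence was highest directly at the start, with 279 summits per Mb from 0 to 100 bp downstream and 262 per Mb in the 100 bp upstream. The fall on the gene side was steep: 86.9 per Mb from 100 to 200 bp and 14.8 from 200 to 300 bp downstream, against 183 and 114 per Mb at the same distances upstream. In 5 groups of both-strand peaks by signal, 59.8% to 64.2% of summits also lay upstream of their nearest TSS. A difference between the classes was not tested. By annotation, 511 one-strand summits fell in untranslated regions, 397 in introns, 30 in coding exons and 524 outside genes. Members were chosen by their distance to a TSS, which bounds these positions at 1 kb; the side of the TSS on which a summit lay was not used. Peaks are not biological replicates: every p-value here describes this peak list, made from both replicates together, and not the spread between embryo collections. With 1 TSS per gene, its outermost 5′ end, the upstream share was 51.8%, still above 44.9% of that sequence (exact binomial p = 1.83e-06).

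**Figure D1:**
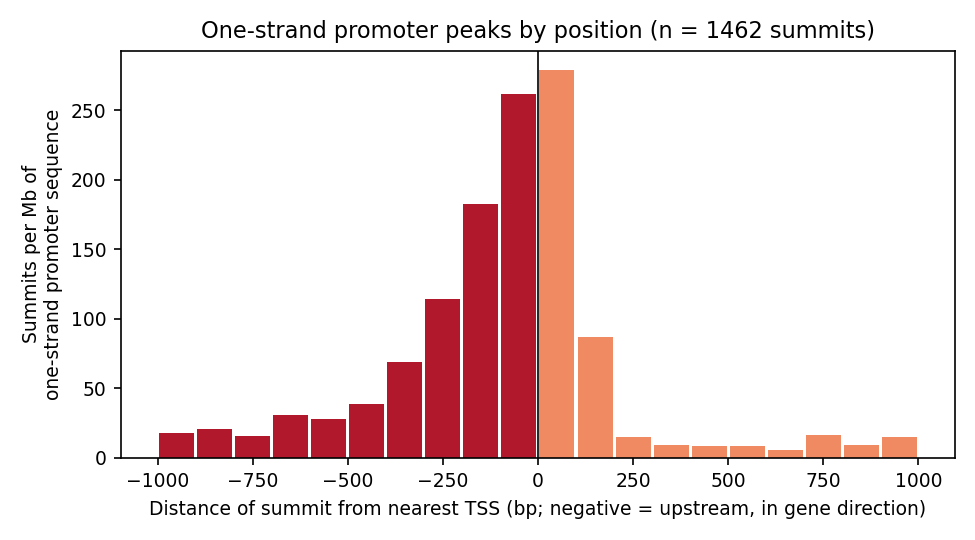
Summits per megabase of one-strand promoter sequence, in bins of 100 bp by signed distance from the nearest TSS (negative, dark bars, upstream; positive, light bars, downstream). Density peaks at 279 per Mb from 0 to 100 bp downstream, falls to 14.8 by 200 to 300 bp downstream, and is still 114 per Mb at 200 to 300 bp upstream.

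One-strand promoters took most of the promoter peaks but fewer than their share of promoter sequence. They held 1462 of 2358 promoter peaks, or 62.0% (interval 60.0 to 64.0), while they make up 83.6% of the promoter bases (exact binomial p = 3.60e-139). This is 64.5 peaks per Mb over 22.7 Mb, against 201.2 per Mb over 4.45 Mb at both-strand promoters and 11.6 per Mb over 106.8 Mb outside promoters. The lower density at one-strand promoters lay close to the TSS. Within 100 bp of the nearest TSS the density was 270 per Mb at one-strand and 544 per Mb at both-strand promoters, and in the next 100 bp it was 133 and 273 per Mb. From there to 300 bp it was 62.6 per Mb at one-strand and 59.9 at both-strand promoters, from 300 to 500 bp it was 30.04 and 19.7 per Mb, and beyond 500 bp it was 15.9 and 16.1 per Mb. Within 100 bp alone, one-strand promoters had 53.4% of the summits and 69.7% of the bases (exact binomial p = 8.66e-35). A base near a both-strand promoter can be close to TSSs of 2 genes, which these densities do not separate.

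The X chromosome carried fewer members than its share of the sequence. It had 202 of them, 13.8% (interval 12.1 to 15.7), with 17.4% of the one-strand promoter sequence (exact binomial p = 0.000251), or 51.2 per Mb. The 4 large autosomal arms lay between 65.3 and 70.2 per Mb, and the small chromosome 4 had 14 members, 76.5 per Mb. The expected share did not allow for the single X of male embryos. Of the 896 both-strand peaks, 95 were on X, and the share of both-strand promoter sequence on X is not given. Gene direction was nearly balanced, with 691 members at genes on the plus strand and 771 on the minus strand.

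The 1462 peaks formed 1367 separate intervals, had 1348 different nearest TSSs, and belonged to 1253 genes. Most genes (1070) had 1 such peak and 183 had more; Pdk1, Ptpmeg2, RapGAP1 and Svil had 4 each. The genes were long: the median length was 6189 bp for the 1253 genes, 3132 bp for the 866 genes of both-strand peaks and 2166 bp for all 13945 protein-coding genes. They also had more TSSs, with means of 2.03, 1.69 and 1.41. Length was not computed for all genes with a TSS that meets the strand rule, so the length of the genes the rule could choose is not given. For 779 members the nearest coding TSS on the opposite strand was over 5 kb away. Yet 143 members (9.78%) had a TSS of a noncoding gene on the opposite strand within 1 kb, so the name describes coding genes only. The rule has 2 limits. Just inside 1 kb of a TSS lay the peak of Ack (994 bp, signal 265) and just outside it that of CG42806 (1001 bp, signal 122). With an opposite-strand TSS just over 1 kb away, COX7C (1002 bp, signal 215) remained a member, and with one at 988 bp Syx7 (signal 121) did not.

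Signal covered a similar range in the 3 classes. The signal deposited by the authors, a score whose unit is not stated, had a median of 158.6 in one-strand peaks (quartiles 136 and 203), 156.4 in both-strand peaks and 165.3 outside promoters, and these values were not tested. Among the 100 strongest peaks of the list, 40 were one-strand, 16 both-strand and 42 outside promoters, and the other 2 were mitochondrial. Of all arm peaks, 40.6% were one-strand, 24.9% both-strand and 34.5% outside promoters. The mean GC content within 50 bp of the summit was 41.5% in one-strand peaks, 38.1% in both-strand peaks and 38.2% outside promoters.

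The 15 strongest members lay mostly upstream of their nearest TSS, at genes with varied functions. They were px, which shapes wing veins, CG18549, Lk6, Socs36E, gish, CG14100, Stat92E, Ppa, an F-box protein, Rac2, a small GTPase of the actin cytoskeleton, chif, related to the Dbf4 subunit of a replication kinase, ph-p, a Polycomb group protein, shn, a zinc finger protein of Dpp signalling, Fkbp14, a peptidyl-prolyl isomerase, cu, a relative of nocturnin, and aay, a phosphoserine phosphatase. Of these, 12 summits were upstream of the nearest TSS, 1 was within 100 bp of it, and 7 held a 3-base-spacer STAT site within 50 bp of the summit. Upstream of that TSS need not mean outside the gene. The summits of px, Lk6, gish, chif, ph-p and Fkbp14 lay upstream of it but in an intron of the same gene. The peak of px (FBgn0003175, 2R 22514112 to 22514519, in an intron 206 bp upstream of a TSS) had the highest signal of the class, 1085, with signals of 559 in replicate 1 and 525 in replicate 3, where it ranked 18 and 1. In 14 of the 15 the peak was among the 100 strongest of both replicates. The exception was cu (3R 11197118 to 11197463): the IDR list gave it a signal of 576 and rank 29, replicate 3 gave it 235 and rank 51, and the list of replicate 1 held no peak that overlapped it.

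STAT sites were more frequent at the summits than 1 kb further upstream, but much less frequent than at peaks outside promoters. TTCNNNGAA was present in 86 of 1462 summit windows, which reach 50 bp to each side (5.88%, interval 4.73 to 7.21) and in 46 windows 1 kb upstream, a ratio of 1.87 (exact McNemar test, adjusted p = 0.0029 over 25 motifs). The site occurs in 2.94% of all 215880 windows of the same length that tile the one-strand promoter sequence. In both-strand peaks it was in 4.35% (Fisher's exact test, adjusted p = 0.462), and outside promoters in 15.2% (adjusted p = 3.70e-14). The 4-base-spacer site was in 67 summit and 51 upstream windows, 4.58% of summits (ratio 1.31, adjusted p = 0.348, exact McNemar test), with 3.01% in all promoter windows, 4.35% in both-strand peaks and 11.1% outside promoters (adjusted p = 1.71e-09, Fisher's exact test). The full palindrome TTCCNGGAA was in 10 summit and 2 upstream windows (adjusted p = 0.121, exact McNemar test), 0.684% of summits, against 0.223% in both-strand peaks and 2.65% outside promoters (adjusted p = 0.000174, Fisher's exact test). It occurs in 0.177% of all promoter windows. For comparison, spacers of 2 and 5 bases and reversed half-sites gave 44 and 38, 45 and 57, and 45 and 44 summit and upstream windows. All motifs were sought on both strands; TTCCNGGAA is a form of TTCNNNGAA, so these counts overlap. Within 100 bp of a TSS alone, the ratio for TTCNNNGAA was 1.54 and did not pass (adjusted p = 0.198, exact McNemar test).

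The strongest members with the palindrome showed it in genes of different kinds. After Stat92E and Ppa, by signal, came cv-c, a RhoGAP of the posterior spiracles (signal 315), Btk, a cytoplasmic tyrosine kinase (287), and Nhe3, a sodium-proton exchanger (234). Their summits lay 579, 151 and 112 bp upstream of the TSS. All 3 had peaks in both replicates, with ranks of 453, 359 and 697 in replicate 1 and 180, 381 and 676 in replicate 3.

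DRE and core promoter motif 1 were more frequent at one-strand summits than 1 kb upstream and than at peaks outside promoters, which did not hold for every core promoter element. DRE was in 51 summit and 5 upstream windows (ratio 10.2, adjusted p = 1.46e-09) and core promoter motif 1 in 66 and 8 (ratio 8.25, adjusted p = 4.52e-11, exact McNemar tests). As shares of summits these are 3.49% and 4.51%, while all one-strand promoter windows held them in 0.423% and 0.341%. Both-strand peaks held DRE in 5.47% and motif 1 in 4.35% (adjusted p = 0.133 and 0.927), and peaks outside promoters held each in 0.322% (adjusted p = 2.57e-09 and 1.27e-12, Fisher's exact tests). The initiator core TCAGT was in 304 and 224 windows (ratio 1.36, adjusted p = 0.00152) and the GAGA factor site GAGAGAG in 60 and 34 (ratio 1.76, adjusted p = 0.0477, exact McNemar tests). They occur in 16.5% and 1.70% of all promoter windows. Against peaks outside promoters neither passed: the initiator core was in 20.8% of one-strand summits and 18.1% outside (adjusted p = 0.143), and the GAGA factor site in 4.10% and 2.98% (adjusted p = 0.197, Fisher's exact tests). The GAGA factor site missed the threshold with the list of replicate 1 alone (ratio 1.67, adjusted p = 0.0538, exact McNemar test). With the 3-base-spacer site these were the 5 of 25 motifs, 20% of those tested, that passed against the upstream window; 8 had an unadjusted p under 0.05. The upstream window lies further from the TSS than the summit does. Of the 775 summits over 100 bp from a TSS, 6 held DRE and 4 held motif 1, too few for a comparison away from the TSS. The initiator core was in 132 of these 775 summit windows and in 111 windows 1 kb upstream. It was in 125 windows at the same distance on the other side of the TSS (ratio 1.06). Neither difference passed.

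The GAGA factor site was the 1 of 25 motifs (4%) that differed between the promoter classes. It was in 4.10% of one-strand summits (interval 3.15 to 5.25) and 1.67% of both-strand summits (interval 0.940 to 2.75), a ratio of 2.45 (adjusted p = 0.0244, Fisher's exact test). Outside promoters it was in 2.98%. In the replicates' own lists the shares were 4.37% at one-strand and 0.997% at both-strand promoters for replicate 1, and 4.77% and 1.31% for replicate 3. The call was lost in 7 of 13 alternatives, with ratios of 1.78 to 3.06: a TSS window of 2 kb (adjusted p = 0.0747), 1 TSS per gene (0.273), 1 summit per gene (0.0889), the stronger 50% of peaks (0.0975), the narrower summit window (0.107), and summits within 100 bp of a TSS (0.159) or beyond (0.921, all Fisher's exact tests). Of all motifs, 5 had an unadjusted p under 0.05 in this comparison, the others being DRE, motif 7, the TATA box and the homeodomain site TAATTA, each with a lower share at one-strand promoters. TATAAA was in 11.8% of one-strand and 15.5% of both-strand summit windows (adjusted p = 0.0818, Fisher's exact test), and in 12.0% of all one-strand promoter windows. Its lower share passed with replicate 1 alone (ratio 0.724, adjusted p = 0.0137) and with replicate 3 alone (0.676, adjusted p = 0.00354), and that of DRE with replicate 3 alone (0.523, adjusted p = 0.0137, Fisher's exact tests).

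Against peaks outside promoters 9 of 25 motifs (36%) passed, 4 higher and 5 lower in one-strand peaks. Besides DRE and motif 1, the higher ones were the motif 5 E-box CAGCTG (6.70% against 3.78%, adjusted p = 0.00248) and the motif 7 core CATCNCTA (2.05% against 0.724%, adjusted p = 0.0146, Fisher's exact tests). All one-strand promoter windows held these in 4.82% and 0.638%. The call for CAGCTG was lost in 4 of 11 alternatives (ratios 1.37 to 1.58): 1 TSS per gene, noncoding TSSs added, the stronger 50% of peaks and 1 summit per gene. That for CATCNCTA was lost in 6 of 11 (ratios 1.06 to 2.57), among them replicate 1 alone (1.55, adjusted p = 0.368) and replicate 3 alone (2.16, adjusted p = 0.0872, Fisher's exact tests). Besides the 3 STAT forms, the lower ones were TATAAA (11.8% against 16.8%, adjusted p = 0.00089) and the Caudal site TTTATG (8.69% against 14.0%, adjusted p = 6.35e-05, Fisher's exact tests). TTTATG is in 9.28% of all one-strand promoter windows. The difference in TATAAA missed the threshold with replicate 3 alone (ratio 0.795, adjusted p = 0.0523, Fisher's exact test).

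**Figure D2:**
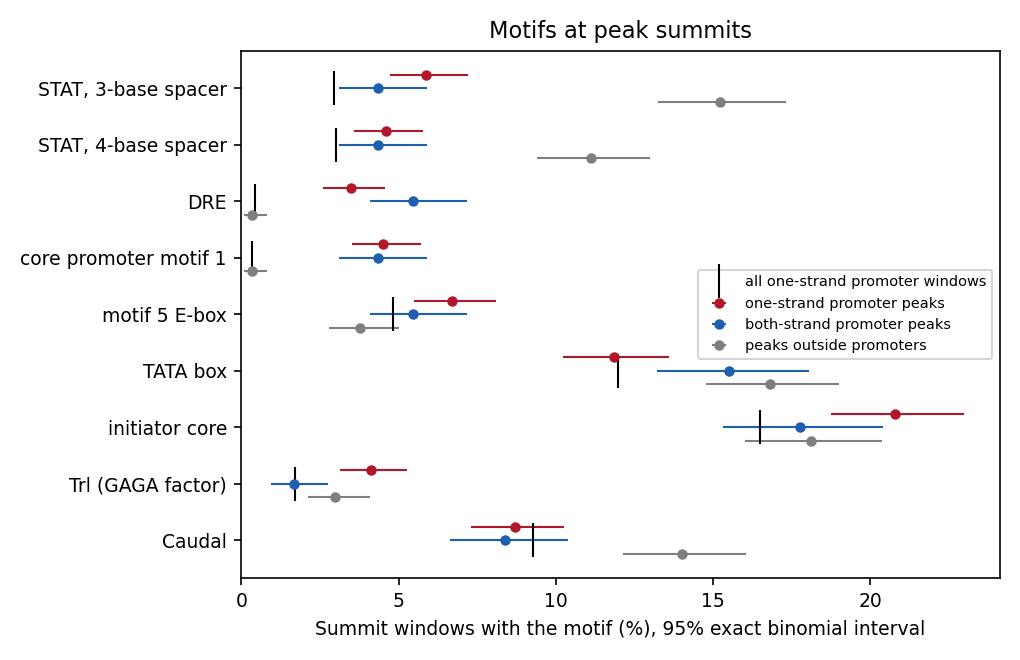
Share of summit windows, 50 bp to each side, that hold each motif, in one-strand promoter peaks, both-strand promoter peaks and peaks outside promoters, with 95% exact binomial intervals; black ticks give all windows of one-strand promoter sequence. The STAT sites are highest outside promoters (15.2% and 11.1%), DRE and motif 1 are near 0 there (0.322% each), and the Trl site is higher at one-strand than at both-strand promoters (4.10% and 1.67%).

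STAT sites were rare in members, as were DRE and motif 1, and few members held both kinds. Of the 1462 members, 148 (10.1%) held a 3- or 4-base-spacer site, 113 (7.73%) held DRE or motif 1, and 6 held both kinds. A STAT site was thus in 5.31% of the members with DRE or motif 1 and in 10.1% of all members. Whether these shares differ was not tested. None of these 4 motifs was found in 1207 members (82.6%).

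With a gene strand defined, core promoter motif 1 had a direction and a fixed place. It was on the gene strand alone in 55 windows and on the opposite strand alone in 11, or 83.3% (interval 72.1 to 91.4; exact binomial test against 50%, adjusted p = 5.40e-07 over 15 motifs). The initiator core TCAGT followed with 173 and 113 windows, 60.5% (exact binomial test, adjusted p = 0.00349). These were the 2 of 15 motifs (13.3%) that passed, and 4 had an unadjusted p under 0.05. Motif 1 sites on the gene strand had a median position of 2.5 bp from the TSS, and 54 of the 56 were within 100 bp. The 11 sites on the opposite strand had a median of -74.5 bp. Of 213 initiator cores on the gene strand, 81 were within 10 bp of the TSS, and of 141 on the opposite strand, 10 were. DRE, which reads the same on both strands, had a median of -34.5 bp, with 81.1% of its 53 sites upstream and 86.8% within 100 bp. GAGA factor sites lay further out, at a median of -137 bp, with 86 sites (85.1%) upstream. STAT sites had no such place: of 92 sites with a 3-base spacer, 48.9% were upstream, the quartiles were -176.25 and 91.75 bp, and the median distance to the summit was 24.5 bp. The bias of motif 1 and of the initiator core is also a property of the sequence searched. In all one-strand promoter windows, 66.4% of motif 1 sites and 54.7% of initiator cores were on the gene strand, and against these shares neither passed (adjusted p = 0.0561 and 0.179, exact binomial tests). Among summits over 100 bp from a TSS the initiator core was on the gene strand alone in 62 windows and on the opposite strand alone in 64, and motif 1 was in only 4 windows.

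**Figure D3:**
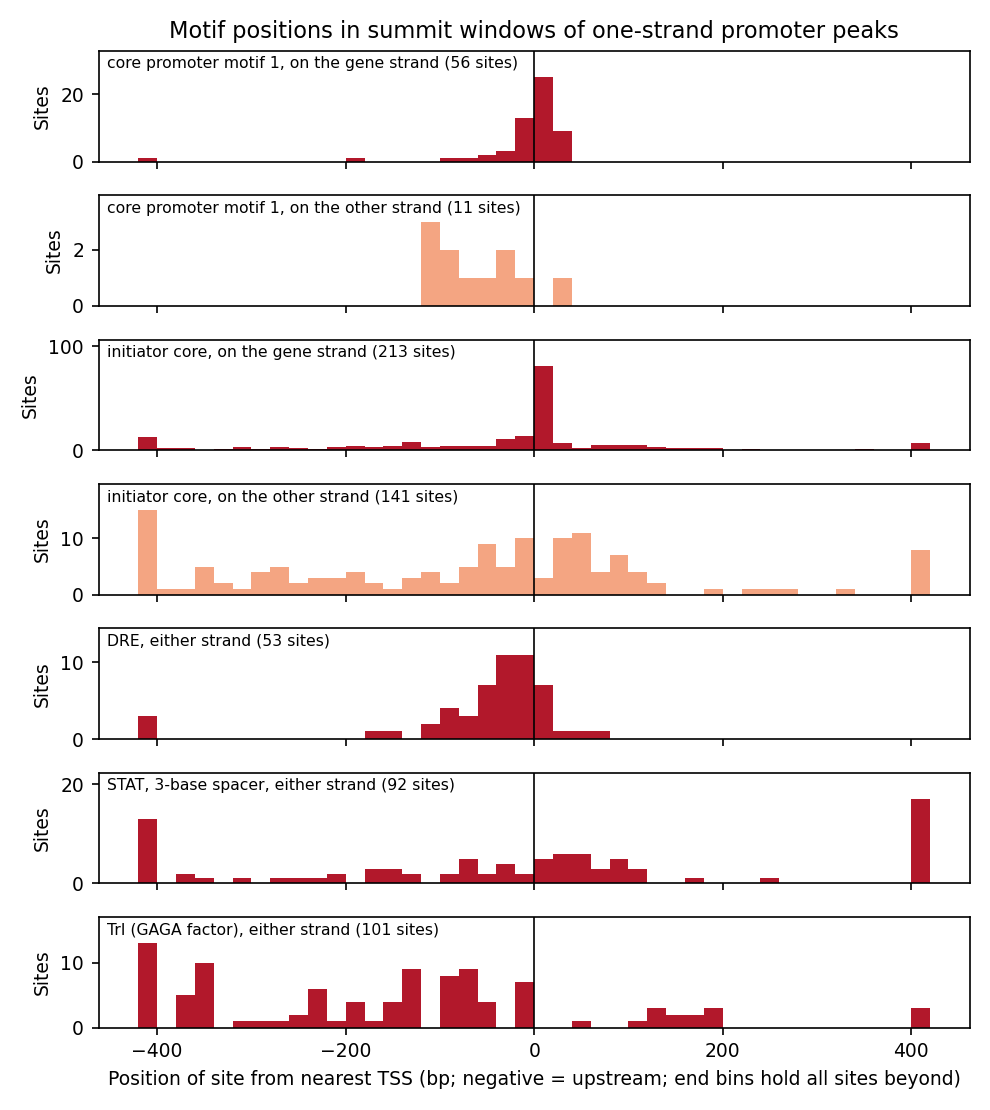
Number of motif sites in the summit windows by distance from the nearest TSS (bp, bins of 20 bp, negative upstream; the end bins hold all sites beyond). Motif 1 and the initiator core on the gene strand pile up at the start (medians 2.5 and 2 bp), DRE lies just upstream (-34.5 bp), GAGA factor sites lie further upstream (-137 bp), and STAT sites are spread on both sides.

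The make-up of the TSSs next to these peaks is given as shares, without a test. The nearest TSSs of members numbered 1348, and 3.26% of them had TATAAA on the gene strand from -45 to -15 bp, against 8.90% of all 13038 one-strand TSSs. DRE within -150 to 50 bp was at 10.2% and 4.06%, motif 1 at 10.8% and 3.54%, and GAGAGAG at 14.2% and 7.01%. TCAGT on the gene strand from -5 to 8 bp was at 16.1% and 13.8%, and TTCNNNGAA at 6.38% and 5.77%. At the 879 nearest TSSs of both-strand peaks the shares were 16.5% for DRE, 15.6% for motif 1, 3.30% for GAGAGAG and 5.12% for TCAGT. All 6215 both-strand TSSs had 12.5%, 11.1%, 3.23% and 5.99%. Over all TSSs, with or without a peak, GAGAGAG and TCAGT were therefore also more frequent at one-strand than at both-strand promoters.

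Motif content and position varied with signal. Over 5 groups of equal size by signal, the 3-base-spacer site was in 12.6% of the strongest (interval 9.05 to 17.0), then in 5.80%, 2.40%, 3.77% and 4.79%. DRE was in 1.37% and 0.683% of the 2 strongest groups, then in 3.77%, 6.51% and 5.14%. Motif 1 was in 3.41% of the strongest and 6.16% of the weakest group. The share of summits upstream of the TSS was 72.7% in the strongest and 51.7% in the weakest group, and 25.6% and 54.5% lay within 100 bp of the TSS. Among both-strand peaks the share with the 3-base-spacer site was likewise highest in the strongest group, at 9.44% (interval 5.60 to 14.7), which overlaps the interval at one-strand promoters; a difference between the classes was not tested by group. Median signal was 152 for members within 100 bp of the TSS, 177 from there to 300 bp upstream and 172 further upstream.

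**Figure D4:**
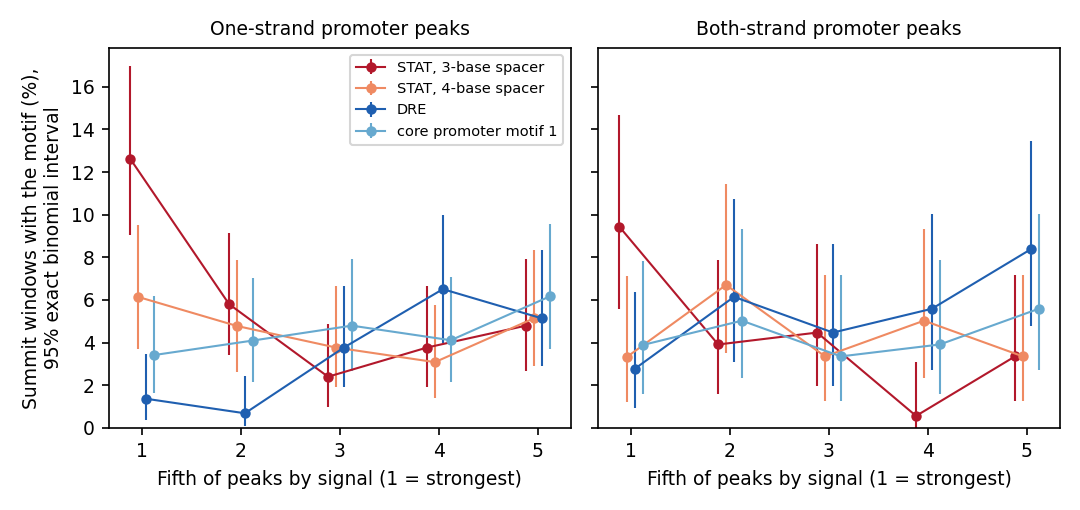
Share of summit windows with each of 4 motifs in 5 groups of peaks by signal (1 = strongest), for one-strand and both-strand promoter peaks, with 95% exact binomial intervals. The 3-base-spacer STAT site is highest in the strongest group of both classes (12.6% and 9.44%), and DRE is lower there (1.37% and 2.78%) than in the weakest group (5.14% and 8.38%).

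Both replicates held nearly all of these peaks. Of the 1462 members, 1447 (98.97%) overlapped a peak in both replicate lists by at least 1 bp, and 963 (65.9%) were among the 3603 strongest of both; 272 were among the strongest of replicate 1 alone and 193 of replicate 3 alone. The IDR list was built from these lists, so this is no independent check. The strongest 3603 peaks of each replicate, classed anew, gave a one-strand share of promoter peaks of 62.2% in replicate 1 and 63.0% in replicate 3. The upstream share was 61.5% and 59.7%, the X share 13.1% and 14.4%, and the share of motif 1 on the gene strand 82.1% and 79.2%. DRE was in 50 summit and 5 upstream windows of replicate 1 and in 40 and 7 of replicate 3, and the 3-base-spacer site in 81 and 45 and in 84 and 54.

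Genes of the JAK/STAT pathway carried one-strand peaks at several levels of the cascade. Of 13 components, 5 had one (38.5%), against 8.99% of all protein-coding genes. These were the ligand gene upd2, Stat92E, and the negative regulators Socs36E, Ptp61F, a phosphatase, and Su(var)2-10, the fly PIAS protein. Another 2 had a both-strand peak, which 6.21% of all genes had. The strongest one-strand peak of each of the 5 held a 3- or 4-base-spacer site within 50 bp of its summit, whereas 127 of 1253 genes (10.1%) did. Among the 9 components with a TSS that meets the strand rule, 4 (44.4%) had a one-strand peak, against 13% of all such genes. The list was written with earlier results known, and these shares were not tested. The Socs36E peak (2L 18151280 to 18152038, summit in an intron, 713 bp downstream of the TSS) had a signal of 655, with 335 in replicate 1 and 310 in replicate 3, and the Stat92E peak (3R 20549980 to 20550889, also intronic, 729 bp downstream) had 642, with 357 and 293. Both replicates placed these 2 among their 40 strongest peaks. The other 3 had lower signals, and the replicates' ranks were furthest apart for Su(var)2-10. Ptp61F (3L 1349173 to 1349656, summit in its untranslated region, 90 bp downstream) had a signal of 238 and ranked 494 in replicate 1 and 635 in replicate 3. The upd2 peak (X 18243485 to 18243954), 436 bp upstream of the gene, had a signal of 141 and ranked 2835 and 2796. Su(var)2-10 (2R 9115951 to 9116420, 64 bp downstream) had a signal of 128 and ranked 2266 and 7078.

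Genes known as targets of the pathway numbered 31. Of these, 14 (45.2%) had a one-strand peak and 5 had a both-strand peak, against 8.99% and 6.21% of all protein-coding genes. Among the 27 with a TSS that meets the strand rule, 13 (48.1%) had a one-strand peak, against 13% of all such genes. These shares were not tested. Socs36E and Stat92E count in both lists. Among the other 12 of the 14, cv-c alone held a STAT site at the summit of its strongest one-strand peak. Over all 1253 genes with a one-strand peak, 127 (10.1%) held one there. Diap1, an inhibitor of cell death (signal 243, 48 bp upstream), apt, a transcription factor of border cells and trachea (190), Mmp1, a matrix metalloprotease (180), vvl, a POU factor of the trachea (179), Sxl, the switch gene of sex determination (154), zfh1, a zinc finger homeodomain factor (147), Tep2, a thioester protein of immunity (144), wg, the Wnt ligand (142), pnt, an Ets factor (136), eya (128) and trh, the tracheal selector (126), had none there. The site was sought only within 50 bp of the summit. For some of these the replicates were far apart: wg ranked 12445 in replicate 1 and 857 in replicate 3, vvl 4171 and 626, and zfh1 1750 and 4936.

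Other signalling pathways had one-strand peaks at 26.7% to 52.9% of their genes, against 8.99% of all protein-coding genes. The lists were written with earlier results known, and their shares were not tested. Among genes with a TSS that meets the strand rule, 36.4% (Dpp and BMP) to 60% (Notch) had one-strand peaks, against 13% of all such genes. Notch pathway genes had them at 9 of 17, among them E(spl)m7-HLH (signal 547, 319 bp upstream of the TSS, rank 46 in replicate 1 and 52 in replicate 3), numb, an inhibitor of Notch (244), and neur, an E3 ligase (232); 1 had a both-strand peak. Wnt pathway genes had them at 8 of 16 and no both-strand peak, led by the GSK3 kinase sgg (308), nkd (193) and the co-receptor arr (192). EGFR, Ras and FGF genes had them at 10 of 26, led by the ligand spi (306), the FGF adaptor stumps (298) and the kinase Raf (225), and 4 had both-strand peaks. The spi peak ranked 1055 in replicate 1 and 89 in replicate 3. Of 15 Dpp and BMP genes 4 had a one-strand peak, shn (587), Mad (256), Dad (162) and tkv, and of 11 Hedgehog genes 3, ci (213), boi (208) and rasp (125). Both-strand peaks were at 3 Dpp and BMP genes and 0 Hedgehog genes. The rasp peak held TTCCNGGAA.

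Cell biology and tissue lists had one-strand peaks at 14.3% to 37.5% of their genes, against 8.99% of all protein-coding genes. Among genes with a TSS that meets the strand rule, 14.3% (segmentation and homeotic) to 56.25% (actin and polarity) had them. Of all such genes, 13% did. These shares were not tested. Actin and polarity genes had one-strand peaks at 9 of 24, led by Rac2 (632), sqh, the myosin light chain (338), and scrib (273), whose window holds motif 1, and 6 had both-strand peaks. Cell cycle genes had them at 10 of 36, led by dap (192), CycA (190) and mad2 (186). Neural genes had them at 5 of 19, led by elav, the neuronal RNA-binding protein (514), insc (227) and pros (181), and mesoderm and muscle genes at 3 of 14, tin (211), sls (202) and zfh1. Segmentation and homeotic genes, all 28 with such a TSS, had them at 4 (14.3%), near the 13% of all such genes: opa (167), wg, bcd (141) and slp1. Heat shock genes had them at 3 of 15, Hsp27 (326), Hsp26 (172) and Hsp22 (146), and architectural and promoter factors at 4 of 21, including mod(mdg4) (228), nej (200) and Taf1 (137).

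Housekeeping genes divided between the 2 promoter classes in different ways. Cytoplasmic ribosomal protein genes had one-strand peaks at 23 of 89 (25.8%) and both-strand peaks at 32. The 23 lay close to the TSS, 18 of them within 100 bp and at a median of 27 bp downstream; 6 held DRE or motif 1 and 0 of 23 a STAT site, which allows a share of up to 13.0%. RpL23A (288), RpL30 (273) and RpL11 (246) led them. Mitochondrial ribosomal protein genes had 0 one-strand peaks among 73 genes (upper limit 4.11%) and both-strand peaks at 6. Spliceosome genes had 2 one-strand peaks, at Prp4k (143) and snRNP-U1-70K (123), and 11 both-strand peaks among 30 genes; only 5 of the 30 have a TSS that meets the strand rule. Counted over the 9521 protein-coding genes that have such a TSS, 1238 (13%) had a one-strand peak at their own start, as had 22 of 41 ribosomal protein genes, 0 of 15 mitochondrial ones and 2 of 5 spliceosome genes. Translation factors had one-strand peaks at 8 of 51 (15.7%), led by eEF1alpha1 (217), eEF2 (202) and eEF1gamma (193), and both-strand peaks at 8. Of the 29 translation factors with such a TSS, 8 (27.6%) had a one-strand peak. Proteasome subunits had one-strand peaks at 3 of 48 (6.25%), Rpt6 and Prosbeta7 (129 each) and Rpn10 (127). Respiratory chain subunits had them at 7 of 84 (8.33%), led by COX7AL2 (420), COX7C (215) and ATPsynC (204). Both shares were below the 8.99% of all protein-coding genes. Among genes with such a TSS they were 3 of 23 (13.0%) and 6 of 44 (13.6%), near the 13% of all such genes. Both-strand peaks were at 6 proteasome genes (12.5%) and 8 respiratory chain genes (9.52%), against 6.21% of all genes.

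Cuticle protein and chemoreceptor genes had almost none. Cuticle protein genes had 0 one-strand and 0 both-strand peaks among 92 genes (upper limit 3.26%), although 82 of them have a TSS that meets the strand rule. Of 179 chemoreceptor genes 1 had a one-strand peak, Gr93a (3R 21831934 to 21832403, 334 bp upstream, signal 253), and it held a 4-base-spacer site. The gene with the nearest TSS need not be one that Stat92E regulates, and the number of cells with the factor at a site cannot be told apart from the strength of its binding in whole embryos.

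**Figure D5:**
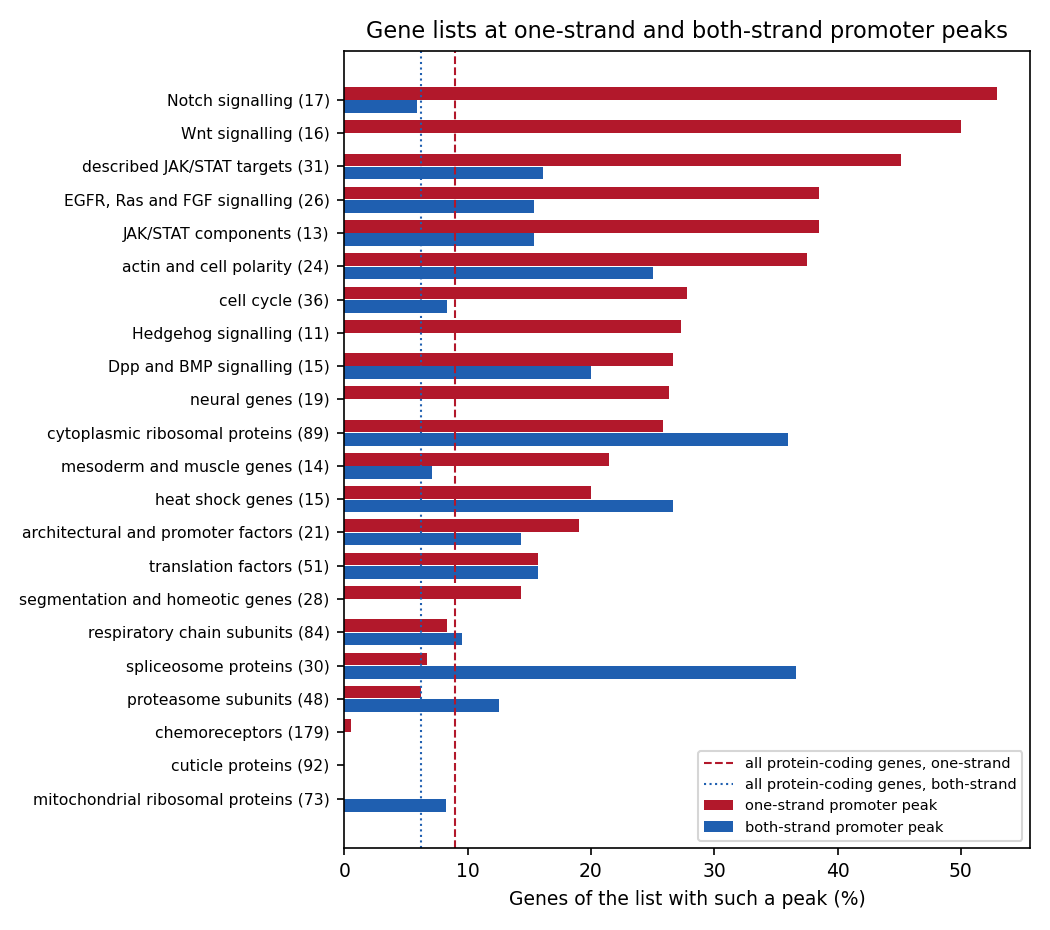
Share of the genes of each list (number of genes in brackets) with a one-strand promoter peak (upper bar) and a both-strand promoter peak (lower bar); lines mark all protein-coding genes, 8.99% (dashed) and 6.21% (dotted). Signalling lists such as Notch (9 of 17) and Wnt (8 of 16) have mainly one-strand peaks, while ribosomal protein and spliceosome genes have more both-strand peaks. The lists differ in how many genes have a TSS that meets the strand rule. Among such genes, one-strand peaks were at 9 of 15 for Notch (60%) and 8 of 15 for Wnt (53.3%). They were at 22 of 41 cytoplasmic ribosomal protein genes (53.7%) and 2 of 5 spliceosome genes (40%).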

How the data were processed

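Stat92E ChIP-seq was analysed from the peak lists that the authors deposited: 1 list per replicate, 1 pooled list and 1 list thresholded by IDR, on build dm6 per the labels. Per the deposited file lists, each replicate's peaks derive from its own alignments and a further input common to both, which also entered the control-normalized signal (not used here), and the IDR list derives from the other 3. For aligner, peak caller and IDR threshold, names and settings were not given in the sources used here. Signal is a score deposited by the authors without a unit, used only to rank and describe peaks. The deposited -log10 q-value took 1 value in the IDR list and was not used. Read depth is unknown, so intervals (95%, exact binomial) cover counting error only. Upper limits for counts of 0 are 3 divided by the number of genes. The summit position was taken as deposited; 2 mitochondrial peaks of the 3603 were left out.

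TSSs came from Ensembl release 115 (19253 TSSs of 13945 protein-coding genes) and sequence from RefSeq's Release 6 genome; all 3601 arm peaks ended inside their arm. Motifs (25, both strands) were sought within 50 bp of each summit. Exact binomial, McNemar and Fisher tests were two-sided, with Benjamini-Hochberg adjustment over the motifs of a comparison and a threshold of 0.05 (Python 3.11.15, SciPy 1.17.1), and were checked on simulated sequence. A peak went to the gene with the nearest TSS. Of 298 gene list entries given by name, 12 matched no symbol and were left out. Genes were named by rule: the 15 strongest members, all pathway and target genes with a peak, up to 3 per other list, and the strongest members with TTCCNGGAA or DRE; genes with the most peaks, those at the limits of the rule, and tkv and slp1, which complete a list of 4, are further names chosen after their values were seen. Members, lists and tests were chosen with earlier results of these data known. Alternatives changed the TSS window, the gene models, the peak set, the summit window and the control window.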

Additional observations from a re-analysis of the deposited data

How the results depend on the processing

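The 3 shares (one-strand, upstream and X) kept their direction and passed under every alternative tried; RefSeq models, which share 19253 of 19254 TSSs with Ensembl, gave the same values. The counts of motifs that passed moved more. Against the upstream window the 5 motifs became 2 with 1 TSS per gene, 2 with the stricter 50% of peaks, 2 with windows of 51 bp, 11 with windows of 100 bp to each side, 9 with downstream controls, 3 with mirror controls and 1 among summits over 100 bp from a TSS. Against both-strand peaks the 1 motif became 4 with a 500-bp TSS window, 0 with 2 kb, 0 with 1 TSS per gene, 2 with noncoding TSSs added, 0 with the stricter peaks, 0 with 1 summit per gene, 5 with windows of 100 bp to each side, 2 within 100 bp of a TSS and 0 beyond; the list of a single replicate gave 3 to 5. Where this count was 0 (Fisher's exact test), 2 to 6 motifs had an unadjusted p under 0.05. Against peaks outside promoters the 9 became 14 with windows of 100 bp to each side. For orientation the 2 became 1 with 51-bp windows, 4 with windows of 100 bp to each side, 0 (exact binomial, 1 unadjusted) over 100 bp from a TSS and 0 (3 unadjusted) against all promoter windows, and single replicates gave 3 to 4. The calls against the upstream window were lost in some of 15 alternatives each: 7 for the GAGA factor site, 5 for the initiator core, 3 for the 3-base-spacer site, 3 for DRE and 2 for motif 1. Of 11 alternatives against peaks outside promoters, 6 lost the motif 7 core, 4 the motif 5 E-box, 2 the TATA box and 1 DRE, and 7 of 13 lost the GAGA factor site against both-strand peaks. The cause was not tested. Results that turned round had not passed or did not pass after the turn: motif 1 against both-strand peaks had ratios of 0.817 (2 kb), 0.732 (stricter peaks), 0.807 and 0.830 (single replicates) and 0.798 (100 bp to each side), the 3-base-spacer site 0.896 (100 bp to each side), motif 1 against the upstream window 0.8 over 100 bp from a TSS (4 summit windows and 5 upstream), and the initiator core on the gene strand 49.2% there. The share of members with a peak in a replicate list fell to 90.6% for replicate 1 and 90.2% for replicate 3 with 50% reciprocal overlap. The splits at 100 bp and the comparison with all promoter windows were added after seeing the data. No paired analysis was possible because there is 1 group. With no read counts, no precision per peak can be given.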
